A study of Mus musculus with 10 samples.

Results

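Kinesins are motor proteins that use ATP to move along microtubules or to take microtubules apart, and their genes were followed here in sorted mouse lung epithelial cells. The members are the genes whose array annotation gives a single symbol made of Kif and a number. They came to 38 of 22180 measured genes, on 41 of 23521 probe sets with a single symbol. For the 3 genes with more than 1 probe set, the brightest on average across the arrays was taken. One of the 38, Kif4-ps, is a pseudogene by its symbol.

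The arrays compare a pair of populations, each with 5 samples and each labelled as type 2 alveolar epithelial cells (AEC2s), the surfactant-producing cells of the alveolus, from mice at postnatal day 4. SP-C+ samples came from SftpcCreERT2-R26REYFP mice, in which a tamoxifen-inducible Cre under the surfactant protein C gene turned on YFP, and the cells were sorted for YFP after 24 h of tracing. Axin2+ samples came from Axin2CreERT2-TdTomato mice, in which the Cre is driven by Axin2, a target of canonical Wnt signalling. Those cells were sorted as TdTomato+ and EpCAM+ and as CD31- and CD45-. The animals of both lines had mixed ancestry from C57BL/6, from 129S6 and from CD-1 mice. The labels give no treatment, which does not mean untreated animals, as both lines carry the inducible CreERT2. A tracing time is stated here for the SP-C+ samples only. Reporter, driver, mouse line and gate differ together between the groups, so they cannot be told apart from the cell label. The labels do not say that replicates are separate animals, and p-values then reflect only how far these samples scatter, which may be technical.

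Kinesin genes fall into sets with different work. Mitotic kinesins build the spindle, move chromosomes and complete cell division, and their transcripts accumulate as cells enter G2 and mitosis. Kinesins of motile cilia sit in or near the axoneme of airway ciliated cells, where they affect beating and cilium length. Heterotrimeric kinesin carries intraflagellar transport particles along primary and motile cilia alike, and the remaining kinesins mostly haul vesicles, organelles and receptors through the cytoplasm.

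Values are log2 probe set values, and differences are Axin2+ minus SP-C+ with a standard error (SE) from limma, fitted over all 22180 genes. A gene is said to have risen or fallen when its Benjamini-Hochberg adjusted p over all genes was under 0.05. The mean of 10 AEC2 markers lay between 13.21 and 13.27 in SP-C+ and between 13.05 and 13.17 in Axin2+ arrays, with 0 of 10 higher and 1 lower. Only 1 of the 10 differences was above 0. These markers lay at percentiles of mean value from 99.3 (Etv5) to 100.0, and the highest value of all was 14.16. Whether differences are muted so near the top of the scale was not tested. Ciliated cell markers were all higher in Axin2+ arrays (9 of 9, median difference 2.70), as were AEC1 markers (10 of 10, median 2.63) and 5 of 6 club cell markers. Endothelial, leukocyte and mesenchymal markers showed 0 of 8, 1 of 9 and 0 of 10 higher. The share over all genes was 8.61% higher and 8.95% lower. SP-C+ replicate 1 stood apart on the endothelial list, whose mean was 7.33 there and 6.05 to 6.67 on the other 9 arrays. The same array was highest on the mesenchymal list (6.77, others 6.08 to 6.41) and, within SP-C+, on the AEC1 list (9.94, others 9.47 to 9.60). In bulk RNA, a change in the share of cells of a type and a change in RNA per cell cannot be told apart.

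Of the 38 kinesin genes, 14 were higher in Axin2+ arrays, 2 were lower and 22 did not pass. Over all genes 8.61% were higher and 8.95% lower. The median difference of the family was 0.33, against -0.04 over all genes. Called differences of at least 2-fold were found for 5 kinesin genes, all higher in Axin2+ arrays, where 2.89% of all genes were called at that size. Those 5 were the motile cilium genes Kif27, Kif9 and Kif6 and the mitotic genes Kif23 and Kif11. Centring each array on its median left the family at 10 higher and 2 lower, while the share of higher genes among all calls went from 49.0% to 26.1%.

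**Figure D1:**
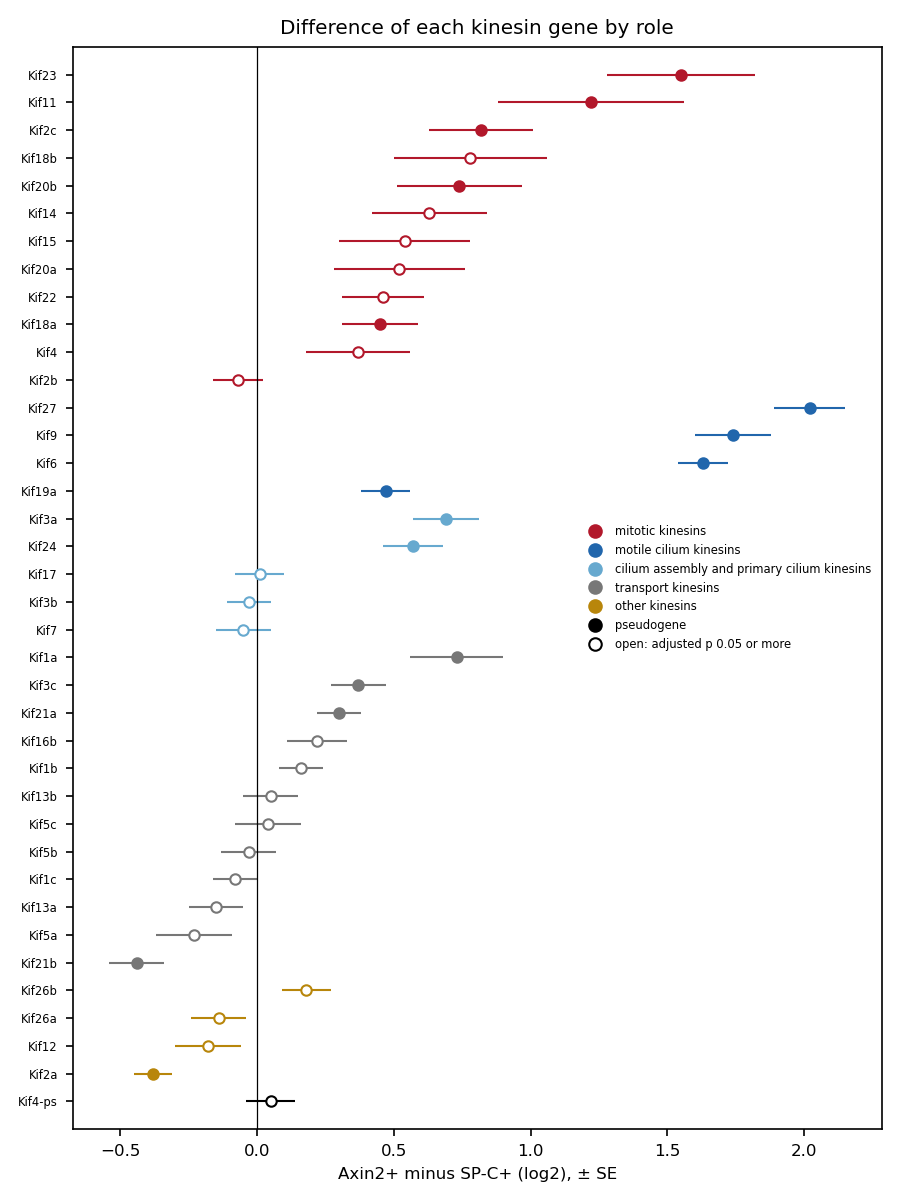
Difference between Axin2+ and SP-C+ arrays (log2, x axis) for each of the 38 kinesin genes (y axis), with points at the estimate, bars for the SE and colours for the role; filled points passed an adjusted p of 0.05. The motile cilium genes Kif27, Kif9 and Kif6 lie furthest right with short bars, and the mitotic genes lie to the right of 0 with longer bars, Kif2b excepted.

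All 4 kinesin genes of motile cilia rose in Axin2+ arrays, and each did so without overlap between the groups. Their median difference was 1.69. For Kif27 this rests on 1 of its 2 probe sets, as the other was at -0.07 with overlapping groups. Over all genes 8.61% rose, and 7.38% had Axin2+ values entirely above the SP-C+ values. All 4 calls were kept in each fit that left out an array and in the other settings tried, except that Kif27 was not tested when only genes above the 50th percentile of mean value were kept.

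Kif27 encodes a kinesin related to the Hedgehog pathway kinesin Kif7 that acts in motile cilia with the kinase Stk36. Its values were 4.75, 4.77, 5.01, 4.46 and 4.57 in SP-C+ replicates 1 to 5. In Axin2+ replicates 1 to 5 they were 6.61, 6.60, 6.52, 6.86 and 7.09. The lowest Axin2+ array thus lay well above the highest SP-C+ array, and the difference was 2.02 ± 0.13 SE, or 4.06-fold (n = 5 per group, limma adjusted p = 1.55e-07). The other Kif27 probe set did not show this. It measured 5.46 ± 0.29 (SD, n = 5) in SP-C+ and 5.39 ± 0.11 in Axin2+ arrays, a difference of -0.07, and the mean of both probe sets gave 0.98. The probe set used was the brighter one only through its Axin2+ mean of 6.74, as its SP-C+ mean of 4.71 was the lower. The choice by mean over all arrays thus favoured a rise for Kif27.

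Kif9 encodes a kinesin of the central apparatus of motile cilia. It measured 5.19, 5.70, 5.20, 5.81 and 5.60 in the SP-C+ samples and 7.20, 6.93, 7.19, 7.51 and 7.38 in the Axin2+ samples. The difference was 1.74 ± 0.14 SE, a 3.35-fold rise (limma adjusted p = 1.84e-06). Kif6, a close relative of Kif9, measured 5.66, 5.57, 5.36, 5.63 and 5.69 against 7.16, 7.05, 7.25, 7.39 and 7.22. Its rise was 1.63 ± 0.09 SE (adjusted p = 4.53e-08 in limma). For both genes every Axin2+ array exceeded every SP-C+ array by more than the whole range within either group.

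Kif19a encodes a plus-end depolymerase that limits the length of motile cilia, and it moved less. Its SP-C+ values were 6.18, 6.38, 6.52, 6.14 and 6.26, and its Axin2+ values 6.75, 6.63, 6.70, 6.82 and 6.92. The groups were narrowly separate, with a difference of 0.47 ± 0.09 SE (limma adjusted p = 0.00292).

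Genes that work with these motors in motile cilia were higher in the same arrays. Of 18 measured partners and regulators 15 rose and 0 fell, with a median difference of 1.94, against 8.61% higher and 8.95% lower over all genes. Rsph4a, of the radial spoke head, rose by 3.84 ± 0.13 SE and Spag17, of the central apparatus, by 3.58 ± 0.11. Hydin, another central apparatus gene, rose by 3.35 ± 0.10, and Foxj1, the transcription factor of motile ciliogenesis, by 2.10 ± 0.18, with adjusted p-values from limma of 2.59e-06 or lower for these 4 genes. The mean of the 9 ciliated cell markers ran from 5.97 to 6.34 over SP-C+ arrays and from 8.90 to 9.18 over Axin2+ arrays. Foxj1, Rsph1 and Tekt1 are on both lists, so the lists are not separate evidence. Single markers had SP-C+ means from 4.59 (Fam183b) to 9.30 (Tppp3). The groups did not overlap for any of the 9, where 7.38% of all genes were separate with Axin2+ higher. The part of ciliated cells in the kinesin differences was not tested.

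**Figure D2:**
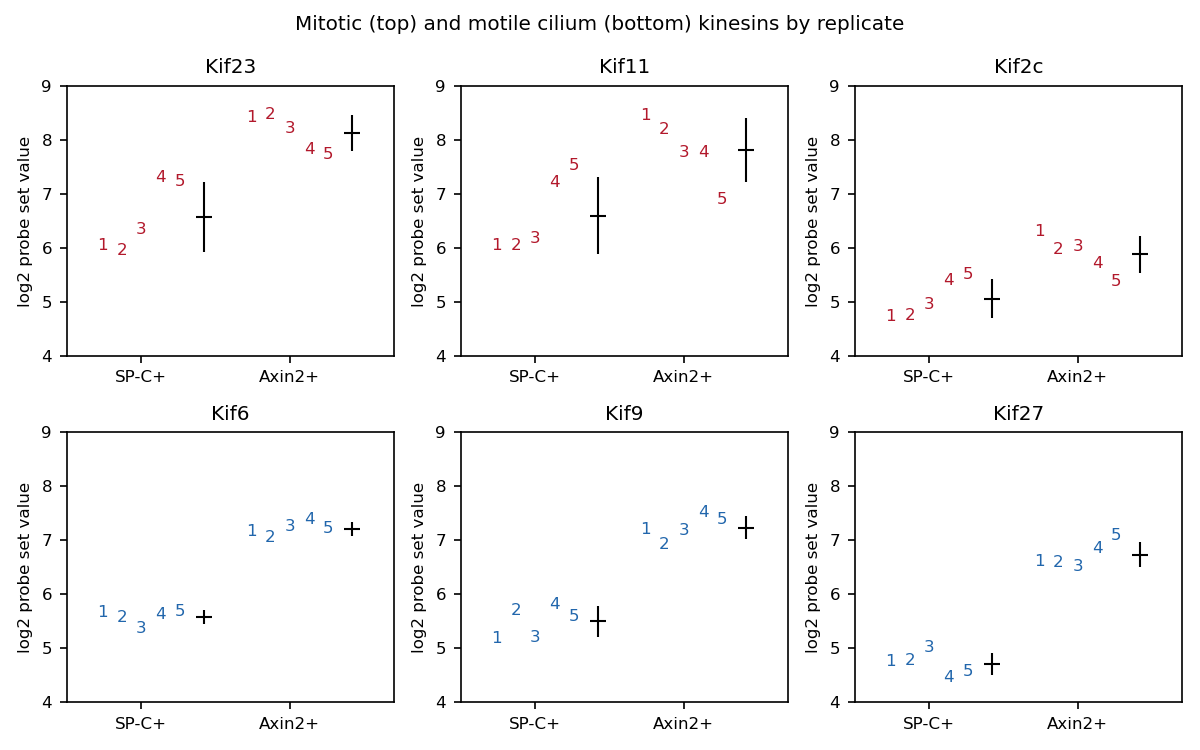
Log2 probe set values (y axis) of 3 mitotic kinesin genes (top) and 3 motile cilium kinesin genes (bottom) in SP-C+ and Axin2+ arrays (x axis), where each digit is the replicate number of an array and the bar is the group mean ± SD (n = 5). Kif6, Kif9 and Kif27 form compact groups far apart, whereas the SP-C+ values of Kif23, Kif11 and Kif2c are spread, with replicates 4 and 5 uppermost.

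Among kinesins that assemble cilia or act in primary cilia, 2 of 5 rose and 0 fell, with a median difference of 0.01. The shares over all genes were 8.61% higher and 8.95% lower. Kif3a, the motor subunit of the heterotrimeric kinesin of intraflagellar transport, measured 6.64, 7.28, 7.03, 7.19 and 7.29 in SP-C+ and 7.74, 7.58, 7.83, 7.88 and 7.84 in Axin2+ arrays. Its groups did not overlap, and it rose by 0.69 ± 0.12 SE (limma adjusted p = 0.00152). SP-C+ replicate 1 was the lowest of these arrays. Kif24, whose product caps mother centrioles and restrains cilium formation, measured 5.53, 5.87, 5.63, 5.87 and 5.68 against 6.34, 6.60, 6.20, 6.09 and 6.18, a rise of 0.57 ± 0.11 SE (adjusted p = 0.00252).

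The partners of Kif3a in its trimer gave different calls, and the difference between them was not tested. Kif3b, the second motor subunit, lay between 7.72 and 7.97 in SP-C+ and between 7.67 and 7.86 in Axin2+ arrays, so that the groups overlapped (difference -0.03 ± 0.08 SE, limma adjusted p = 0.847). Kifap3, the accessory subunit, rose by 0.52 ± 0.10 SE (adjusted p = 0.00393), a call that ended (0.30, adjusted p = 0.0586) once SP-C+ replicates 1, 2 and 3 were left out. Kif17, a homodimeric relative found in cilia and dendrites, was at 0.01 ± 0.09, and Kif7, the Hedgehog regulator at the tip of the primary cilium, at -0.05 ± 0.10. The second Kif7 probe set gave 0.21.

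Intraflagellar transport genes encode the cargo particles of the trimer. Of 19 measured, 11 rose and 1 fell, with a median of 0.38, against 8.61% higher and 8.95% lower over all genes. Traf3ip1 rose by 0.94 ± 0.10 SE and Ift122 by 0.91 ± 0.16, and Ift20 was lower by -0.35 ± 0.07 (limma adjusted p-values 1.76e-05, 0.00139 and 0.00463). The Ift20 call ended (-0.26, adjusted p = 0.0789) with SP-C+ replicates 1, 2 and 3 left out. On SP-C+ replicate 1 the mean of the 19 genes was 7.56, against 7.95 to 8.03 on the other SP-C+ arrays. Without that array 10 rose and 1 fell.

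Mitotic kinesin genes lay higher in Axin2+ arrays in 11 of 12 cases, with a median difference of 0.58, where 8849 of all 22180 genes lay higher. Only 5 of the 12 passed and 0 fell, against 8.61% higher and 8.95% lower over all genes. The 5 were Kif23, Kif11, Kif2c, Kif20b and Kif18a. Only for Kif23 were the groups separate. Their spread within groups was wide and is given after the single genes. Kif2a, which acts in spindles but also in interphase cells and cilia, was not on this list, and it fell (-0.38).

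Kif23 encodes a subunit of centralspindlin, which bundles the central spindle and directs cytokinesis. It measured 6.04, 5.96, 6.34, 7.31 and 7.23 in SP-C+ replicates 1 to 5 and 8.41, 8.47, 8.21, 7.83 and 7.73 in Axin2+ replicates 1 to 5. The nearest arrays of the groups were SP-C+ replicate 4 and Axin2+ replicate 5. The difference was 1.55 ± 0.27 SE, or 2.94-fold (limma adjusted p = 0.00134). It was 2.02 without SP-C+ replicates 4 and 5 and 0.86 without replicates 1, 2 and 3 (adjusted p = 0.0236), and passed in both cases.

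Kif11 encodes the tetrameric motor that pushes spindle poles apart. Its values were 6.05, 6.04, 6.18, 7.21 and 7.52 in SP-C+ and 8.46, 8.20, 7.77, 7.76 and 6.90 in Axin2+ arrays. Axin2+ replicate 5 lay below SP-C+ replicates 4 and 5, so the groups overlapped. Kif11 rose by 1.22 ± 0.34 SE, or 2.33-fold (limma adjusted p = 0.0241). Its call ended when SP-C+ replicate 1, 2 or 3 or Axin2+ replicate 1 or 2 was left out (adjusted p = 0.0586, 0.0617, 0.0605, 0.0614 and 0.0594 in that order). Without SP-C+ replicates 1, 2 and 3 together the difference was 0.45 (adjusted p = 0.466).

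Kif2c encodes a depolymerase that corrects kinetochore attachments. It measured 4.73, 4.74, 4.95, 5.39 and 5.50 in SP-C+ and 6.31, 5.98, 6.02, 5.72 and 5.37 in Axin2+ arrays. Only the last Axin2+ array fell within the SP-C+ range, and the rise was 0.82 ± 0.19 SE (limma adjusted p = 0.00952). Without SP-C+ replicates 1, 2 and 3 it was 0.43 and did not pass (adjusted p = 0.234).

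Kif20b, a cytokinesis motor, measured 4.94, 5.21, 5.11, 6.06 and 5.82 against 6.65, 6.26, 6.30, 6.04 and 5.61. Kif18a, which dampens chromosome movements at the metaphase plate, measured 5.79, 5.65, 5.89, 5.97 and 6.07 against 6.71, 6.43, 6.43, 6.09 and 5.94. In both genes the Axin2+ range overlapped the upper SP-C+ values. Kif20b rose by 0.74 ± 0.23 SE and Kif18a by 0.45 ± 0.14 SE, near the threshold (limma adjusted p = 0.0407 and 0.0413). Leaving out single arrays ended either call in 7 of 10 fits, with adjusted p-values up to 0.0970 for Kif20b (without Axin2+ replicate 1) and 0.0967 for Kif18a (without Axin2+ replicate 3). Those 7 fits left out SP-C+ replicate 1, 2 or 3 or Axin2+ replicate 1, 2 or 3, and in addition Axin2+ replicate 4 for Kif20b and SP-C+ replicate 4 for Kif18a. Without SP-C+ replicates 1, 2 and 3 the differences were 0.23 and 0.30 (adjusted p = 0.591 and 0.366). Both calls also ended with median centring (adjusted p = 0.0502 for Kif20b and 0.0682 for Kif18a) and quantile normalization (0.0571 and 0.0720), and that of Kif18a with array weights (0.0651).

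The other mitotic genes did not pass. Kif18b, which shortens astral microtubules, was at 0.78 ± 0.28 SE (limma adjusted p = 0.0751). Kif14, of the midbody, was at 0.63 ± 0.21 (0.0572), and Kif22, a chromosome-binding motor, at 0.46 ± 0.15 (0.0523). Kif15, a spindle motor that can stand in for Kif11, was at 0.54 ± 0.24, Kif20a, of the central spindle, at 0.52 ± 0.24 and the chromosome-associated Kif4 at 0.37 ± 0.19. Kif2b, a relative of Kif2c, was the only member of the set below 0, at -0.07 ± 0.09. The pseudogene Kif4-ps, whose probes may also detect Kif4, was at 0.05 ± 0.09.

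The count of 5 mitotic genes depended on single arrays. It was 2 without SP-C+ replicate 1, 2 or 3, 2 without Axin2+ replicate 1 or 2, and 3 without Axin2+ replicate 3. It was 8 without SP-C+ replicate 5 and 9 without Axin2+ replicate 5. Leaving out SP-C+ replicates 4 and 5 gave 9 of 12, where 9.57% of all genes were higher. Leaving out replicates 1, 2 and 3 gave 1 of 12, where 6.78% of all genes were higher. This split follows the order of the arrays in these same genes. It describes their spread and does not test the calls. For single genes and other lists, calls lost without replicates 1, 2 and 3 came with a smaller SP-C+ group and often with a smaller difference. The difference fell from 1.22 to 0.45 for Kif11 and from 0.74 to 0.23 for Kif20b, and changed little for Kif21a and Kif3c. How much of each lost call goes with the group size was not tested.

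The arrays took the same order in most mitotic kinesin genes. SP-C+ replicates 4 and 5 were the highest 2 of the SP-C+ arrays in 10 of 12 genes, against 14.4% of all genes. Axin2+ replicate 1 was the highest of its group in 10 of 12 (22.6% of all genes), and Axin2+ replicate 5 the lowest in 10 of 12 (19.2%). None of the 4 motile cilium genes showed any of these orders. The mean of the 12 mitotic genes was 5.52, 5.56, 5.60, 6.18 and 6.23 over SP-C+ replicates 1 to 5 and 6.94, 6.73, 6.49, 6.26 and 5.99 over the Axin2+ replicates. The mean of the 4 motile cilium genes stayed between 5.45 and 5.61 in SP-C+ arrays. Over Axin2+ replicates 1 to 5 it was 6.93, 6.80, 6.92, 7.15 and 7.15, so these genes had an order of their own. In each of the 4 the highest Axin2+ array was replicate 4 or 5. The share of all genes with that order was not computed.

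**Figure D3:**
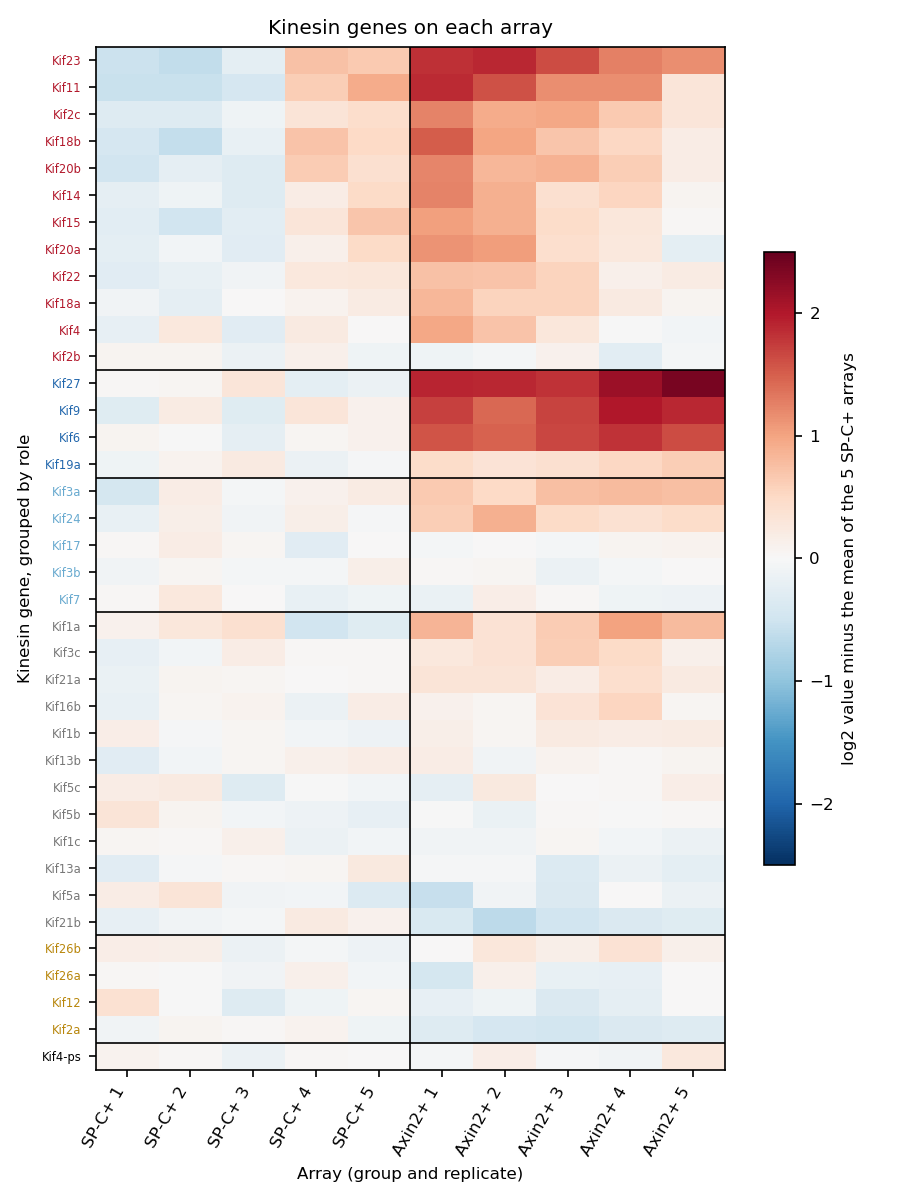
Each kinesin gene (rows, grouped by role) on each array (columns), coloured by its log2 value minus its mean over the 5 SP-C+ arrays. Mitotic genes are redder in SP-C+ replicates 4 and 5 than in replicates 1, 2 and 3 and redder in Axin2+ replicate 1 than in replicate 5. Kif27, Kif9 and Kif6 are red in all 5 Axin2+ arrays.

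Spread within groups also differed in size between the sets, as a description. The median SD of mitotic kinesin genes was 0.34 over SP-C+ and 0.40 over Axin2+ arrays, against 0.17 and 0.13 over all genes. Motile cilium kinesin genes had median SDs of 0.18 and 0.17. Apart from Kif2b, each mitotic gene had an Axin2+ SD between 0.29 (Kif22) and 0.59 (Kif11), and the highest of any other kinesin gene was 0.25 (Kif1a).

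**Figure D4:**
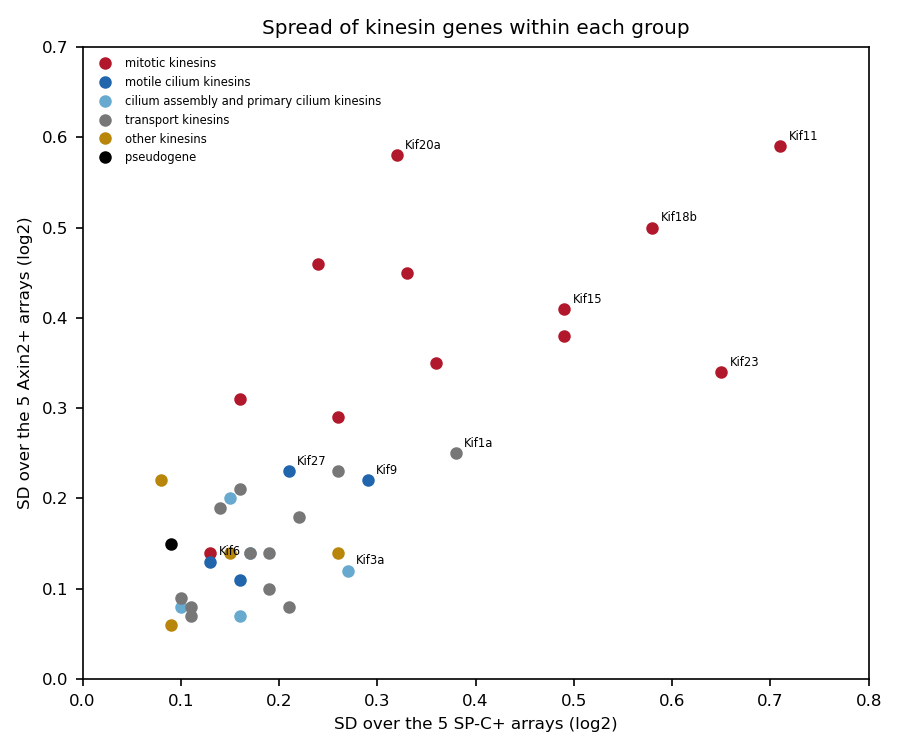
SD over the 5 Axin2+ arrays (y axis, log2) against SD over the 5 SP-C+ arrays (x axis, log2) for the 38 kinesin genes, coloured by role. Mitotic genes other than Kif2b lie above an Axin2+ SD of 0.25, and all other kinesin genes lie at or below it.

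Mitotic partner genes followed the same arrays. Of 23 measured, 13 rose and 0 fell (median 0.82), against 8.61% higher and 8.95% lower over all genes. SP-C+ replicates 4 and 5 were the highest of their group in 20 of the 23, against 14.4% of all genes. Cdk1, the mitotic kinase, measured 6.28, 5.83, 5.67, 7.40 and 8.18 in SP-C+ and 9.53, 9.02, 8.54, 8.31 and 7.75 in Axin2+ arrays, a difference of 1.96 ± 0.46 SE (limma adjusted p = 0.00988). Mki67, a marker of cycling cells, rose by 1.76 ± 0.41 SE (0.00893). The count of 13 was 7 without SP-C+ replicate 2, 20 without SP-C+ replicates 4 and 5 and 0 without replicates 1, 2 and 3, where Cdk1 was at 0.84 (adjusted p = 0.238). Mitotic partners and mitotic kinesins moved with the same arrays, and the part of cycling cells in the kinesin differences was not tested.

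Regulators of these genes rose in 6 of 9 cases, with 0 lower and a median of 0.50, against 8.61% higher and 8.95% lower over all genes. E2f1, an activator of cell cycle entry, rose by 1.38 ± 0.10 SE (limma adjusted p = 7.96e-07), and its SP-C+ values of 6.79, 6.89, 7.0, 6.90 and 7.21 stayed below Axin2+ values of 8.39, 8.50, 8.49, 8.18 and 8.14. E2f8, a repressor of the same family, rose by 1.37 ± 0.30 SE (0.00707) and lost its call (0.60, adjusted p = 0.168) with SP-C+ replicates 1, 2 and 3 left out. Of the kinesins named outside the numbered series and Cenpe, the kinetochore motor, 1 of 5 rose. That gene was Kifc3, a minus-end motor of epithelial junctions and Golgi, at 0.55 ± 0.09 SE (adjusted p = 0.00117).

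The promoters of the members that moved together were read from RefSeq windows of mouse assembly GRCm38.p6, each with 250 bases before and 50 after an annotated start site. Windows were found for 31 of the 38 genes and were searched on both strands. The cell cycle homology region, TTTGAA, is an element through which MuvB complexes restrict genes to G2 and mitosis. It occurred in 9 of 11 mitotic kinesin genes with a window, in 1 of 3 motile cilium, 0 of 5 cilium assembly and 1 of 8 transport genes, and in 20.2% of all 27025 genes with a window. The 9 were Kif11, Kif14, Kif15, Kif18b, Kif20b, Kif22, Kif23, Kif2c and Kif4. The exceptions outside the set were Kif27 and Kif1a, as well as Kif26b among the other kinesins. The start sites of the windows with these letters lie 19559 bases inside the gene record for Kif1a, 9798 for Kif27, 3852 for Kif2c and 1547 for Kif14. The variant TTTAAA was found in Kif14 and Kif2c (14.9% of all genes), CCAAT in 7 of 11 mitotic genes (41.1% of all genes), and the E2F letters TTGGCGC in Kif15 and Kif18a (2.85%). A match is a description of letters and not a site in use.

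To show where TTTGAA lies, 4 mitotic promoters are given from 120 bases before to 30 bases after the start site, 5′ to 3′ on the strand of the gene, with TTTGAA or its complement TTCAAA in capitals. Kif23 and Kif11 carried the largest mitotic differences, Kif20b holds 2 copies in a row, and Kif22 just missed the threshold. Kif23 is at chr9:61946770-61946919 on the minus strand, Kif11 at chr19:37376262-37376411 on the plus strand, Kif20b at chr19:34922238-34922387 on the plus strand and Kif22 at chr7:127042391-127042540 on the minus strand.
Kif23: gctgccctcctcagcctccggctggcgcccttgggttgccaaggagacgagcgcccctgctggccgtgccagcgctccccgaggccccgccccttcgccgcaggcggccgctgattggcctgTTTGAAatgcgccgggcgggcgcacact
Kif11: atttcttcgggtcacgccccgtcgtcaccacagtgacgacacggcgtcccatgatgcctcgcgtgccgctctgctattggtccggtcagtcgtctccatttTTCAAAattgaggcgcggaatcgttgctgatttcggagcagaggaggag
Kif20b: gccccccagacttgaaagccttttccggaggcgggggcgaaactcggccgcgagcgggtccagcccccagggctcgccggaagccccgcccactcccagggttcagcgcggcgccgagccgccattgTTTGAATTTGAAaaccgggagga
Kif22: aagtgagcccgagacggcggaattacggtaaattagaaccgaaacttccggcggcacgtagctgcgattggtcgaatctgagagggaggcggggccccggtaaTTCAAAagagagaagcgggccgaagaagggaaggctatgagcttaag
The letters begin 19 bases before the start site in Kif11 and 17 before it in Kif22, and at bases 3 and 8 after it in Kif23 and Kif20b.

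For the ciliary members the X-box, the binding element of RFX factors that switch on cilium genes, was searched. Its full form was found in 0 kinesin windows and 0.529% of all genes. Its first arm, GTTGCC, was found in Kif9, Kif3a, Kif24 and Kif17 of the 8 ciliary genes with a window, in 2 of 11 mitotic and 3 of 8 transport genes and in 14.1% of all genes. The windows of Kif9 (chr9:110476838-110476987, plus strand), Kif24 (chr4:41464819-41464968, minus strand) and Kif3a (chr11:53567249-53567398, plus strand) are printed in the same way with GTTGCC in capitals, as these are the risen ciliary genes that hold it.
Kif9: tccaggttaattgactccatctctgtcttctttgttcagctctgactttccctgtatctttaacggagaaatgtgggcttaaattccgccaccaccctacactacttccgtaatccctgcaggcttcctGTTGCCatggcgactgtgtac
Kif24: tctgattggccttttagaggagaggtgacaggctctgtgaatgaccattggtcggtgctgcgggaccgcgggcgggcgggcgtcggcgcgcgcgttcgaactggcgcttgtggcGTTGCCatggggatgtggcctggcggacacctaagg
Kif3a: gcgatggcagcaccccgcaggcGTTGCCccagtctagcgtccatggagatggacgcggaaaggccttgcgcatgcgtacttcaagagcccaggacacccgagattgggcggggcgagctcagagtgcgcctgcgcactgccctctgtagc
Kif9 has 2 start sites in the table, and the arm begins at base 10 after the one printed and 27 bases before the other. It begins 6 bases before the start site in Kif24 and 98 before it in Kif3a. The start site of the Kif3a window lies 1668 bases inside its gene record.

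Transport kinesins mostly differed little. Of 12 measured, 3 rose and 1 fell, with a median difference of 0.05, against 8.61% higher and 8.95% lower over all genes. Kif1a, best known for carrying synaptic vesicle precursors, measured 5.77, 5.94, 6.05, 5.18 and 5.35 in SP-C+ and 6.50, 6.02, 6.29, 6.67 and 6.45 in Axin2+ arrays. SP-C+ replicates 4 and 5 were here the lowest arrays, the reverse of the mitotic genes, and the rise was 0.73 ± 0.17 SE (limma adjusted p = 0.0101). It was 0.47 without those replicates and 1.12 without replicates 1, 2 and 3, and passed both times.

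Kif21a, a cortical regulator of microtubule growth, measured 7.41, 7.65, 7.63, 7.59 and 7.61 against 7.90, 7.91, 7.77, 7.99 and 7.80. Its close relative Kif21b moved the other way, at 7.18, 7.28, 7.33, 7.61 and 7.48 in SP-C+ and 7.0, 6.72, 6.89, 7.01 and 7.08 in Axin2+ arrays. Both had separate groups. Kif21a rose by 0.30 ± 0.08 SE (limma adjusted p = 0.0169) and Kif21b fell by 0.44 (SE 0.10, adjusted p = 0.00825). The rise of Kif21a did not pass after median centring (0.20, adjusted p = 0.0750), nor (0.27, adjusted p = 0.0883) with SP-C+ replicates 1, 2 and 3 left out. The difference between the pair was not tested.

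Kif3c, which pairs with Kif3a in a trimer best known from neurons, measured 7.16, 7.29, 7.55, 7.39 and 7.39 against 7.62, 7.72, 7.97, 7.83 and 7.49. The groups overlapped at Axin2+ replicate 5, and the rise was 0.37 ± 0.10 SE (limma adjusted p = 0.0256). Its call ended when SP-C+ replicate 1 or 2 or Axin2+ replicate 2, 3 or 4 was dropped (adjusted p = 0.05 to 0.0685), after median centring (0.28, adjusted p = 0.0716) and after quantile normalization (0.30, adjusted p = 0.0571). It also ended with SP-C+ replicates 4 and 5 dropped (0.39, adjusted p = 0.0531) and with replicates 1, 2 and 3 dropped (0.34, adjusted p = 0.132). A further probe set annotated to Kif3c and another gene was not used.

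Conventional kinesin, which moves many organelles, did not pass for any of its heavy chains. Kif5b, the ubiquitous one, measured 11.03, 10.78, 10.65, 10.59 and 10.50 in SP-C+ and 10.70, 10.54, 10.73, 10.70 and 10.74 in Axin2+ arrays. The SP-C+ range enclosed the whole Axin2+ range, and the difference was -0.03 ± 0.10 SE (limma adjusted p = 0.887). The second Kif5b probe set gave 0.03. Kif5a and Kif5c, heavy chains of neurons, were at -0.23 ± 0.14 and 0.04 ± 0.12, and Kif5c was the only member below the 25th percentile of all genes by mean value. Vesicle and endosome motors were also within small differences: Kif16b 0.22 ± 0.11, Kif1b 0.16 ± 0.08, Kif13b 0.05 ± 0.10, Kif1c -0.08 ± 0.08 and Kif13a -0.15 ± 0.10, with adjusted p-values of 0.179 or more. A value that misses the threshold does not show that a gene is equal in both groups.

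Light chains and adaptors of transport kinesins were mostly below the threshold, with 2 of 13 higher (15.4%) and 1 lower (7.69%), against 8.61% and 8.95% over all genes. Klc1, a light chain of conventional kinesin, rose by 0.45 ± 0.08 SE (limma adjusted p = 0.00148) with separate groups, and Kifap3 was the other rise. Plekhm2, an adaptor that links kinesin to lysosomes, was lower by -0.33 ± 0.09 (adjusted p = 0.0245). That call ended without SP-C+ replicate 3 and without Axin2+ replicate 1, 2, 3 or 4 (adjusted p = 0.0520 to 0.0565), and the mean over its probe sets gave -0.14.

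Of the remaining kinesins 0 of 4 rose and 1 fell, against 8.61% higher and 8.95% lower over all genes. Kif2a, a depolymerase of interphase cells, spindles and cilia and a relative of the mitotic Kif2c, measured 8.97, 9.12, 9.09, 9.15 and 8.94 in SP-C+ and 8.74, 8.63, 8.60, 8.69 and 8.73 in Axin2+ arrays. Every Axin2+ array was below every SP-C+ array, and the gene fell by 0.38 (SE 0.07, limma adjusted p = 0.00264). Kif26b was at 0.18 ± 0.09, Kif26a at -0.14 ± 0.10 and Kif12, an epithelial kinesin, at -0.18 ± 0.12. Over the whole family 8 genes were separate with Axin2+ higher and 2 with Axin2+ lower, against 7.38% and 7.66% of all genes.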

How the data were processed

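Expression arrays of 10 samples, 5 per group, were measured from 100 ng RNA each. The values are log2 probe set values that the authors deposited after oligo and RMA, per the submitters' processing notes; tool versions are not given in the sources used here. Array medians lay between 5.89 and 5.97, and the number of arrays limits the precision. Of 41345 probe sets, 23521 had 1 symbol in the platform annotation, 1814 had several and 16010 had none, and only the first were used. The comparison used lmFit and eBayes of limma (version 3.58.1, under R 4.3.3) with Benjamini-Hochberg adjustment over 22180 genes. On simulated data for this comparison with 22180 genes, the fit recovered 52%, 92%, 94% and 100% of 50 genes each changed by 0.5, 1, 1.5 and 2 on the log2 scale. Of its calls 5.06% were false. Each gene was drawn independently there, so array orders shared by many genes, as in the mitotic set, were not simulated. Only those genes were changed, whereas 17.6% of all genes were called in the data. The p-value cutoff set by the adjustment therefore differed, and the recovered shares may not carry over to the data. Every member is accounted for, and of each pathway list the genes past the threshold with the 2 largest differences in each direction were named, along with Cdk1, Mki67, Foxj1 and Hydin. Fam183b and Tppp3, the ends of a marker range, were named after their values were seen. The members and lists were chosen with earlier results of these data known. Alternatives covered normalization, dim genes, probe sets, variances, array weights, threshold, replicate numbers and left-out arrays. Replicate numbers did not pair the samples.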

Additional observations from a re-analysis of the deposited data

Results flagged for a closer look

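Over 76 groups of 5 arrays, each a kinesin gene in 1 population, 2 held an array far from the others. Chance alone flags about 1 group in 20, so 2 of 76 is no excess. For Kif21a, SP-C+ replicate 1 was the lowest of its group at 7.41, with the nearest array at 7.59 and the highest at 7.65, so that the gap took 0.759 of the range. For Kif5b, Axin2+ replicate 2 was the lowest at 10.54, with the nearest array at 10.70 and the highest at 10.74, a gap of 0.789 of the range.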

How the results depend on the processing

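Of 16 called kinesin genes, 10 kept call and direction in every alternative at an adjusted p of 0.05 that tested them (Kif27, Kif24 and Kif1a were not tested above the 50th percentile), and 5 uncalled genes passed under some alternative. The 14 of 38 higher kinesin genes became 8 of 19 tested above the 50th percentile, where 14.5% of all tested genes were higher. They became 8 without SP-C+ replicates 1, 2 and 3 (6.78% of all genes) and 8 at an adjusted p under 0.01 (6.0%). Without 1 array they were 10 to 18, against 7.2% to 8.79% of all genes. For the counts below, 8.61% of all genes were higher in the main fit, 7.25% with the replicate block, 7.04% with median centring and 8.49% with quantile normalization. Without SP-C+ replicates 4 and 5 it was 9.57%. The 8 separate genes became 16 without SP-C+ replicates 4 and 5 (8 to 12 without 1 array). Groups of fewer arrays separate more easily. The share of all genes that separate is not given for these settings, so the increase is not read as a result. The 5 mitotic genes became 2 with the replicate block, 3 with median centring, 3 with quantile normalization, 2 above the 50th percentile, 9 without SP-C+ replicates 4 and 5, 1 without replicates 1, 2 and 3 and 2 at 0.01 (2 to 9 without 1 array). The 3 transport genes became 1 with median centring, 1 without SP-C+ replicates 1, 2 and 3 and 0 at 0.01 (2 to 3). The 2 cilium assembly genes became 1 of 2 tested above the 50th percentile, and the 2 mitotic genes there were of 4 tested. Mitotic partners (13 higher) became 7 with the replicate block, 20 without SP-C+ replicates 4 and 5, 0 without replicates 1, 2 and 3 and 7 at 0.01 (7 to 17). Regulators (6 higher, 0 lower) had 3 higher without SP-C+ replicates 1, 2 and 3 and 1 lower with median centring (5 to 6 higher). Intraflagellar transport (11 higher, 1 lower) had 7 higher at 0.01 and 0 lower without SP-C+ replicates 1, 2 and 3 (8 to 10 higher), and motile cilium partners 14 to 16 without 1 array. Light chains and adaptors (2 higher, 1 lower) had 4 higher without SP-C+ replicates 4 and 5 and 1 without replicates 1, 2 and 3 (2 to 3). Their lower count was 0 with the replicate block, the mean over probe sets, SP-C+ replicates 1, 2 and 3 left out and 0.01, 4 with median centring, 2 with quantile normalization and 2 above the 50th percentile (0 to 1). Kinesin-14 genes and Cenpe (1 higher, 0 lower) had 2 higher without SP-C+ replicates 4 and 5 (1 to 2), and 1 lower with median centring, quantile normalization or SP-C+ replicates 1, 2 and 3 left out (0 to 1). Signs turned for 8 kinesin genes, 0 of them called. Median centring gave Kif13b -0.04, Kif17 -0.08, Kif4-ps -0.04 and Kif5c -0.05, quantile normalization Kif17 -0.05 and Kif5b 0.02, and the mean over probe sets Kif5b 0.00 and Kif7 0.08. Without SP-C+ replicates 4 and 5, Kif17 was at -0.07 and Kif3b at 0.00. Without replicates 1, 2 and 3, Kif13b was at -0.10, Kif1c at 0.04, Kif5b at 0.14 and Kif7 at 0.10. Fits without 1 array ranged from -0.02 to 0.10 for Kif13b, -0.05 to 0.06 for Kif17, -0.05 to 0.01 for Kif3b, -0.08 to 0.05 for Kif5b, -0.04 to 0.11 for Kif5c and -0.10 to 0.02 for Kif7. Counts above the 50th percentile cover fewer tested genes, with Kif2c, Kif20b, Kif18a, Kif27, Kif24 and Kif1a below it. For the other settings the cause was not tested. Same-numbered arrays had correlations of deviations from -0.229 to 0.013, so the numbers were not taken as pairs.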
